A study of Homo sapiens with 62 samples.

Results

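The BCL2 family decides whether a cell starts apoptosis through its mitochondria, and 10 of its genes were followed here among the 29794 genes in the tables of 2 human pancreatic ductal adenocarcinoma (PDAC) lines. The genes were chosen by name. They are the pro-survival members MCL1, BCL2, BCL2L1 (BCL-XL) and BCL2A1 (BFL1), the BH3-only members BCL2L11 (BIM), BBC3 (PUMA), PMAIP1 (NOXA) and BID, and the effectors BAX and BAK1. All 10 have a row in every table.

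SLAM-seq was used to separate new from older transcripts. Cells take up the uridine analogue 4sU during the last 2 h of treatment, and after alkylation the 4sU is read as C in place of T, so a read with T>C conversions comes mostly from RNA made in that window. Each of the 62 libraries therefore gives a count of T>C reads (new RNA) and a count of all reads (total RNA) per gene, and their ratio is called the labelled share. All libraries were made from cells of the genotype FKBP12-F36V-FLAG-KLF5_sgEndogenousKLF5: a lentiviral KLF5 fused to a degron stood in for the endogenous KLF5 gene, which was cut with Cas9, and the cells were selected, with no single clone named in the methods. AsPC-1 is a line of the classical subtype and T3M-4 one of the basal-like subtype.

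In AsPC-1, 10 libraries received the degrader dTAGv-1 (dTAG) for 4 h, 10 its inactive analogue dTAGv-1-NEG (NEG), 5 CB-6644 (which blocks the ATPase pair RUVBL1/2), 4 NVP-2 (which blocks the kinase CDK9) and 5 the solvent DMSO. A further 4 libraries with CB-6644 and 4 with DMSO were taken at 12 h. For T3M-4, each of these 5 treatments has 4 libraries, all at 4 h. They are numbered 1.1, 1.2, 2.1 and 2.2, and those of dTAG and NEG in AsPC-1 run from 1.1 to 3.4. The first digit was taken as the experiment. AsPC-1 libraries held 2240998 to 18311982 T>C reads among 82676553 to 200298262 reads, and T3M-4 libraries 3714015 to 27982537 among 111132257 to 244524608. The lowest T>C totals were those of the NVP-2 libraries. The epithelial genes EPCAM, KRT8, KRT18 and KRT19 were expressed in both lines, HNF4A averaged 16.5 CPM (counts scaled to the library total) of all reads in AsPC-1 DMSO and 0.276 in T3M-4 DMSO, and KRT5 averaged 0.0600 and 263. The leukocyte genes PTPRC and CD3E stayed under 0.07 CPM in both, while CD68 averaged 7.90 CPM in AsPC-1 and 1.60 in T3M-4. Among fibroblast genes, COL1A1 averaged 0.0158 CPM in AsPC-1 and 6.78 in T3M-4, and COL1A2 and PDGFRB stayed under 0.07. The endothelial genes PECAM1 and CDH5 averaged 0.258 and 0.242 CPM in T3M-4 and less in AsPC-1.

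Pro-survival members hold the effectors BAX and BAK1 in check at the outer mitochondrial membrane. BH3-only members, whose transcripts many stress signals raise, bind the pro-survival members or activate the effectors directly, and freed effectors open pores that release cytochrome c. MCL1 and PMAIP1 are known for short-lived transcripts and proteins, whereas BCL-XL is a stable protein.

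AU-rich elements in the 3′UTR mark many short-lived transcripts, and the 3′UTR is also where the reads of these libraries were counted. The annotated 3′UTRs of MCL1, PMAIP1, BCL2L11, BCL2L1 and BCL2 (GENCODE v44 on hg38) hold the extended element TATTTAT. The windows printed are 27 bases long, 5′ to 3′ on the strand of the gene, with the element in capitals, and they stand for the members whose total RNA is compared next.
MCL1, chr1:150575808-150575834, minus strand: cctctacagaTATTTATatcaattcct
MCL1, chr1:150575193-150575219, minus strand: tttacctatgTATTTATcgttcttgat
PMAIP1, chr18:59903962-59903988, plus strand: ggaataatttTATTTATtttgcctatt
PMAIP1, chr18:59904210-59904236, plus strand: taccatctggTATTTATggtctaattt
BCL2L11, chr2:111166864-111166890, plus strand: atattgtgagTATTTATtagattcgta
BCL2L11, chr2:111167085-111167111, plus strand: aaatattgtaTATTTATtttctgctta
BCL2L1, chr20:31664683-31664709, minus strand: agcgtgtctgTATTTATgtgtgaggag
BCL2, chr18:63128354-63128380, minus strand: aaaaaagattTATTTATttaagacagt

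The motif was sought on the strand of the gene, and overlapping copies were counted. MCL1 (chr1:150560895-150579738, minus strand) held 5 copies of TATTTAT and 13 of the shorter ATTTA in 3318 bases of 3′UTR. PMAIP1 (chr18:59899996-59904305, plus strand) held 3 and 5 copies in 1555 bases. That is 3.92 and 3.22 copies of ATTTA per kilobase, against medians of 1.72 and 1.35 over 3′UTRs of like length. BCL2L11 (1.73 against 1.88), BCL2L1 (1.71 against 1.41) and BCL2 (2.31 against 2.09) were near their medians, and BBC3 had 0 ATTTA (median 1.1). BCL2L11 had 2 copies of TATTTAT in 5190 bases, and BCL2L1 and BCL2 had 1 copy in 1756 and in 9968 bases. None was present in the 3′UTRs of BBC3 (981 bases), BID (1714), BAX (961), BAK1 (1453) and BCL2A1 (360). A TATTTAT is common: it occurs in 35.0% of the 19981 annotated 3′UTRs. Among 3′UTRs of like length it occurs in 49.1% for MCL1, 30.6% for PMAIP1, 62.6% for BCL2L11, 33.3% for BCL2L1 and 83.7% for BCL2. The 3′UTR exons of BCL2L11 overlap the opposite-strand gene MIR4435-2HG by 727 bases.

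Total MCL1 RNA was lower after 4 h of NVP-2 in both lines, and total BBC3 and PMAIP1 RNA in AsPC-1, where the NVP-2 libraries and their DMSO controls are of different batches and PMAIP1 was not called against controls of the same batch. CDK9 releases paused RNA polymerase II, so its inhibition stops most new transcription, and the question was which members lose their existing transcripts. A gene was called where the edgeR quasi-likelihood test gave a Benjamini-Hochberg adjusted p under 0.05 over all genes tested. Of the 10 members, 3 were called lower and 0 higher in AsPC-1, where 8.39% of all genes tested were called lower and 11.8% in either direction. In T3M-4, 1 of 10 was called lower, beside 4.91% of all genes lower and 5.16% in either direction. Values per library are CPM of all reads, and they are relative to the total RNA of each library, since the authors added no spike-in.

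MCL1, a pro-survival member with a short-lived protein, measured 70.4, 101, 157, 189 and 152 CPM in the 5 AsPC-1 DMSO libraries and 20.1, 27.5, 37.3 and 34.4 CPM in the 4 NVP-2 libraries. The highest NVP-2 library was below the lowest DMSO library, and groups did not overlap in 15.1% of all genes tested in AsPC-1. The log2 change was -2.17 (SE 0.31, adjusted p = 0.00153). In T3M-4, MCL1 measured 152, 124, 172 and 169 CPM with DMSO and 62.0, 79.3, 38.6 and 33.2 CPM with NVP-2. Again the groups did not overlap, as in 13.4% of all genes tested in T3M-4, and the log2 change was -1.53 (SE 0.28, edgeR adjusted p = 0.0146). MCL1 was called in all fits that left out 1 library, 9 of 9 in AsPC-1 and 8 of 8 in T3M-4.

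BBC3, a BH3-only activator, measured 4.33, 4.46, 3.45, 13.2 and 9.11 CPM in the AsPC-1 DMSO libraries and 2.57, 2.15, 1.43 and 1.81 CPM with NVP-2. The NVP-2 values lay together under every DMSO value (no overlap, as in 15.1% of all genes tested), while the DMSO values spread widely. The log2 change was -1.80 (SE 0.42, adjusted p = 0.0198). In T3M-4 the values were 7.88, 4.94, 3.0 and 2.39 CPM with DMSO and 3.25, 2.59, 0.815 and 1.02 CPM with NVP-2, and the groups overlapped. There the log2 change was -1.25 (SE 0.52, adjusted p = 0.272), past no threshold in the unpaired fit. All BBC3 counts were multiples of 4, as when each read is counted 4 times, and the counting error of BBC3 is larger than its counts imply.

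PMAIP1, the BH3-only member that binds MCL1, measured 9.57, 7.06, 12.6, 11.7 and 14.9 CPM in the AsPC-1 DMSO libraries and 5.77, 4.96, 4.81 and 3.55 CPM with NVP-2. All 4 NVP-2 libraries were below all 5 DMSO libraries, and groups did not overlap in 15.1% of all genes tested. The log2 change was -1.23 (SE 0.25, edgeR adjusted p = 0.0107), and the call was lost against both sets of batch 2 controls (-0.74 and -0.95). In T3M-4, PMAIP1 measured 18.1, 23.9, 9.37 and 11.4 CPM with DMSO and 8.95, 10.7, 3.56 and 2.98 CPM with NVP-2. Replicates 1.1 and 1.2 of both groups were high and replicates 2.1 and 2.2 low, and within each pair the NVP-2 libraries were lower. The unpaired log2 change was -1.26 (SE 0.46, adjusted p = 0.204).

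**Figure D1:**
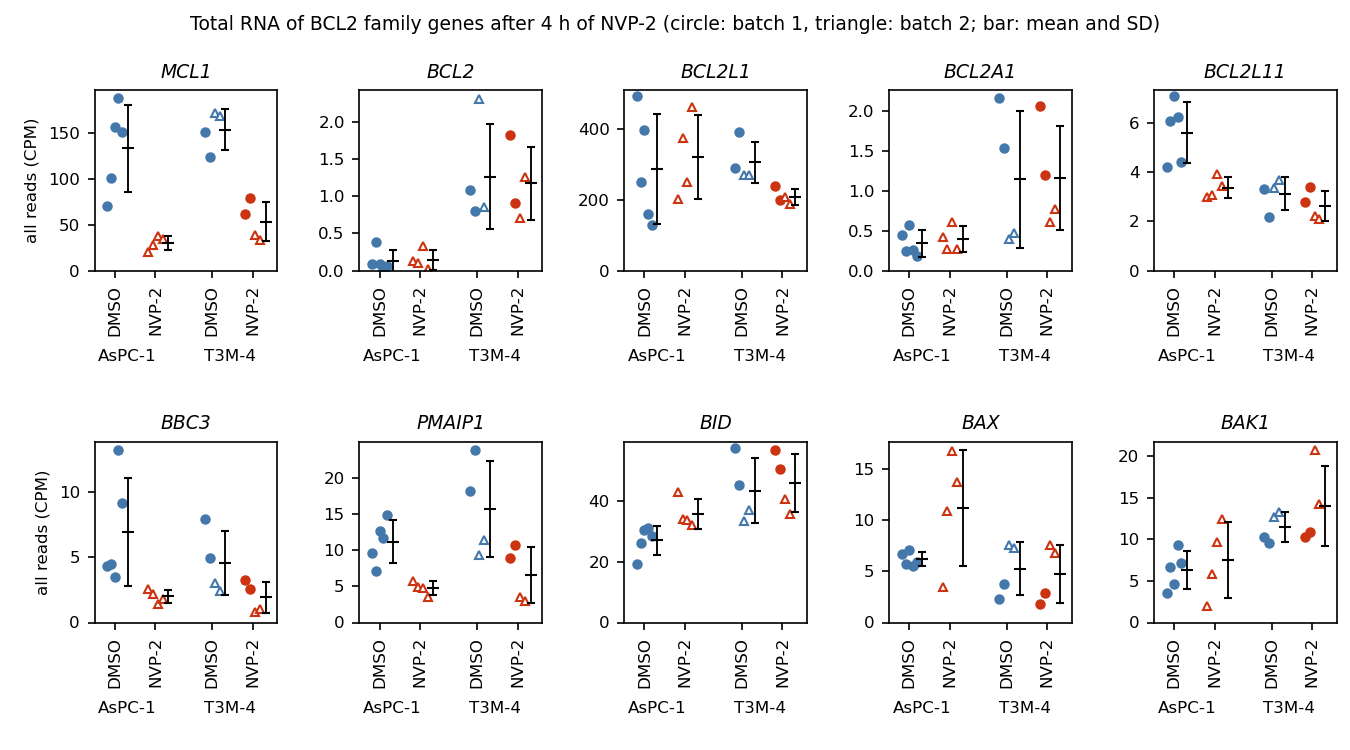
Total RNA of each member in AsPC-1 and T3M-4 after 4 h of DMSO (blue) or NVP-2 (red), in CPM of all reads on a linear axis that starts at 0; each symbol is 1 library, circles are batch 1, triangles batch 2, and the bar is the mean with its SD. MCL1 separates the 2 treatments in both lines, with 20.1 to 37.3 CPM against 70.4 to 189 in AsPC-1 (groups did not overlap in 15.1% of all genes there and 13.4% in T3M-4). The NVP-2 and DMSO values of BCL2, BCL2L1 and BCL2A1 overlap in AsPC-1.

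In T3M-4 the libraries carry a batch number, and deviations of same-numbered DMSO and NVP-2 libraries were correlated in all reads (0.189 to 0.605 over genes). Only 2 of 4 NVP-2 libraries correlated best with the DMSO library of their own number, so pairing by number was not told apart from a shared batch. With the replicate number as a block, 4 members were called lower in T3M-4: MCL1 by -1.61 (adjusted p = 0.00896), PMAIP1 by -1.37 (0.00241), BBC3 by -1.33 (0.00449) and BCL2L1 by -0.54 (0.0341), all log2 changes from edgeR. Within batch 1 alone, 0 members were called and MCL1 changed by -0.96 (edgeR adjusted p = 0.139). Within batch 2 alone, 5 were called and MCL1 changed by -2.35. The share of all genes called with the block or within a single batch is not given here, so these counts say nothing about the members as a group.

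BCL2L11, the BH3-only gene BIM, measured 4.21, 6.09, 7.09, 6.24 and 4.43 CPM in AsPC-1 DMSO and 2.98, 3.08, 3.94 and 3.45 CPM with NVP-2. The groups did not overlap, as in 15.1% of all genes tested in AsPC-1, and the log2 change of -0.74 (SE 0.22, adjusted p = 0.0540) was just short of the threshold. BCL2L1 overlapped between DMSO and NVP-2 in AsPC-1 (log2 change 0.17). In T3M-4 it measured 290, 391, 269 and 270 CPM with DMSO and 240, 198, 208 and 188 CPM with NVP-2. All 4 NVP-2 values were lower, a separation found in 13.4% of all genes in one direction or the other, and the log2 change was -0.55 (SE 0.17, adjusted p = 0.130).

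For the remaining members no change in total RNA passed the threshold after NVP-2. BID, which links death receptors to the mitochondria, measured 19.3 to 31.3 CPM in AsPC-1 DMSO and 32.2 to 43.2 CPM with NVP-2 (log2 change 0.40, edgeR adjusted p = 0.182). These groups did not overlap either, as in 15.1% of all genes tested, but with NVP-2 above DMSO. BAX measured 5.51 to 7.06 CPM with DMSO and 3.46, 10.9, 16.7 and 13.7 CPM with NVP-2 in AsPC-1 (0.86, adjusted p = 0.144), with library 1.1 apart from the others. BAX was called higher once library 1.1 was left out. BCL2 and BCL2A1 were barely detected in AsPC-1, at most 0.392 and 0.615 CPM in any of these libraries. Across all genes tested the median log2 change was 0.06 in each line.

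In AsPC-1 the NVP-2 libraries are all of batch 2 and their DMSO 4 h controls all of batch 1, so batch and NVP-2 cannot be told apart in this comparison. Against the 4 DMSO libraries of 12 h, which are of batch 2, MCL1 changed by -2.17 and BBC3 by -1.75 (both called), and PMAIP1 by -0.74 (edgeR adjusted p = 0.245). Against the NEG libraries of experiment 3, of batch 2 and 4 h, MCL1 changed by -2.08, BBC3 by -2.25 and BCL2L11 by -0.84 (edgeR adjusted p = 0.0305), and PMAIP1 by -0.95 (0.115). The AsPC-1 libraries also fell into 3 sets when clustered on all reads, with MCL1 medians of 91.3, 168 and 141 CPM in the control libraries of sets A, B and C. The 4 NVP-2 libraries were split evenly between sets A and B, and with set as a term, chosen after the data were seen, MCL1, BBC3, PMAIP1 and BCL2L11 were called lower, by -1.96, -0.97, -1.03 and -0.84. BBC3 missed the threshold without DMSO 2.2, NVP-2 2.1 or NVP-2 2.2 (edgeR adjusted p up to 0.0647).

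MCL1 was lowest with NVP-2 in each line when all 12 groups were set in order. On the common scale of unnormalized CPM, the AsPC-1 groups ran from NVP-2 (27.7 ± 8.21, SD, n = 4) through NEG (121 ± 31.3, n = 10), CB-6644 4 h (127 ± 24.6, n = 5), CB-6644 12 h (133.5 ± 22.9, n = 4), DMSO 4 h (142 ± 48.2, n = 5) and DMSO 12 h (146 ± 43.01, n = 4) to dTAG (153 ± 38.8, n = 9). The all-reads column of dTAG 3.1 duplicated a T>C column and was left out, which leaves 9 dTAG libraries in every value of all reads and of the share. Only NVP-2 had libraries that did not overlap those of the next group. In T3M-4 the order was NVP-2 (51.6 ± 23.7), DMSO (162 ± 23.8), CB-6644 (171 ± 4.13), dTAG (180 ± 19.2) and NEG (186 ± 27.2), n = 4 each, and again only NVP-2 stood clear of its neighbour. Patterns were then compared over the 12 group means, centred within each line. The genes most like MCL1, among 13437 genes, were ZNF281 (Pearson r = 0.994), C3orf38 (0.993) and ZNF92 (0.993). For PMAIP1 they were OFD1 (0.987), WRN (0.983) and MKRN2 (0.979), and for BBC3 OTX1 (0.991), ZNF34 (0.988) and ZNF668 (0.985). Over the 10 groups without NVP-2, r was 0.826, 0.544 and 0.287 for the genes named with MCL1, 0.913, 0.855 and 0.839 for those with PMAIP1, and 0.947, 0.950 and 0.859 for those with BBC3.

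The members called lower in total RNA were among those with a high labelled share in cells without active compound. The share was taken from the NEG libraries, which do not enter the NVP-2 comparison. MCL1 had a labelled share of 42.99% ± 2.68 (SD, n = 10) in AsPC-1 and 55.6% ± 1.49 (n = 4) in T3M-4, above 95.7% and 94.4% of genes. BBC3 had 47.7% ± 3.304 and 56.6% ± 9.498, PMAIP1 39.7% ± 5.40 and 66.8% ± 6.27, and BCL2L11 41.1% ± 7.09 and 54.3% ± 12.6. All 4 lay above the 93rd percentile of genes in both lines, far from the median gene at 14.8% in AsPC-1 and 17.6% in T3M-4.

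BCL2L1 was near that median, with 15.5% ± 1.75 and 19.9% ± 0.982. The effectors and BID were at or under it: BAK1 had 11.0% ± 1.86 and 15.7% ± 4.27, BID 9.46% ± 2.43 and 11.2% ± 1.68, and BAX 4.26% ± 1.12 and 9.03% ± 2.72. BAX was at percentile 8.37 of genes in AsPC-1. BCL2 and BCL2A1 had only 254 and 409 reads over all 10 AsPC-1 NEG libraries, and their summed shares of 37.0% and 10.8% are imprecise. A high share marks RNA that is renewed quickly, but it also rises with the T content of the 3′UTR, which was 32.9% for MCL1, 36.6% for PMAIP1 and 19.9% for BBC3, and reads with T>C from sequencing error were not measured, since no library without 4sU was used here.

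**Figure D2:**
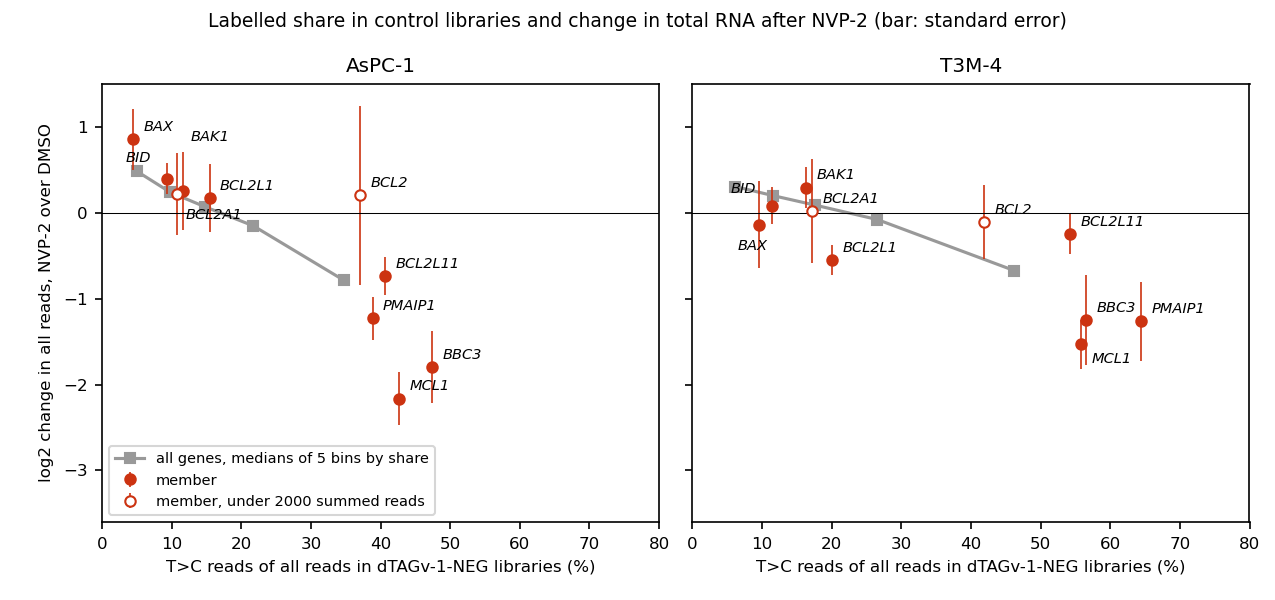
Labelled share in the NEG libraries (x axis, % of a gene's reads with T>C, summed over libraries) against the log2 change in all reads after NVP-2 (y axis, bar: SE) for each member in red, open where under 2000 reads were summed; grey squares are medians of all genes in 5 bins of equal size by share. In both lines BBC3, MCL1, PMAIP1 and BCL2L11 lie at the right with changes below 0, and MCL1, BBC3 and PMAIP1 lie below the last grey square. The AsPC-1 changes are against DMSO controls of another batch.

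Over all genes the same order held. In AsPC-1 the median log2 change in total RNA after NVP-2 was 0.49, 0.24, 0.07, -0.15 and -0.79 over 5 bins of equal size from the lowest to the highest share, and in T3M-4 it was 0.31, 0.20, 0.09, -0.08 and -0.67. Spearman's rho between share and change was -0.63 over 13381 genes and -0.60 over 13527 genes, and -0.95 and -0.78 over the 10 members, given as a description, since genes of 1 library share its depth. MCL1 fell by 2.17 on the log2 scale in AsPC-1, beyond the median of the top bin, which holds it (-0.79), as did BBC3 and PMAIP1. For PMAIP1 this rests on DMSO controls of another batch: against controls of the same batch its changes were -0.74 and -0.95, neither called. BCL2L11 was close to that median in AsPC-1 (-0.74) and above it in T3M-4 (-0.25). BCL2 had a high share in both lines, with no detectable loss at its depth (log2 changes 0.21, SE 1.04, and -0.11).

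The labelled share fell after NVP-2 in all 10 members, less firmly so in BCL2 and BCL2A1. Over whole libraries it was 10.1% ± 0.624 (SD, n = 5) with DMSO and 1.57% ± 0.239 (n = 4) with NVP-2 in AsPC-1, and 12.4% ± 1.56 and 2.24% ± 0.417 (n = 4 each) in T3M-4. All 10 members were called lower in both lines by limma on the log2 odds of the share, beside 86.3% and 81.8% of all genes called lower (86.4% and 81.9% in either direction), so the count of members does not set them apart. The call for BCL2 was kept in only 3 of 9 fits that left out 1 library in AsPC-1, where 2 of 5 DMSO libraries had any T>C read of it, and in 3 of 8 in T3M-4, and that for BCL2A1 in 3 of 8 in T3M-4. MCL1 had shares of 50.5, 50.2, 50.7, 43.7 and 42.9% with DMSO and 7.68, 5.14, 6.73 and 7.34% with NVP-2 in AsPC-1. In T3M-4 they were 59.0, 60.1, 54.2 and 55.2% with DMSO and 3.55, 3.06, 1.48 and 2.43% with NVP-2. The log2 odds fell by 3.67 (SE 0.20) and 5.70, where the median gene fell by 3.29 and 3.43.

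PMAIP1 went from 39.3, 47.0, 43.2, 40.4 and 37.4% to 2.16, 3.05, 4.68 and 0.729% in AsPC-1. In T3M-4 it went from 62.4, 60.9, 62.9 and 64.7% to 2.11, 2.54, 4.42 and 2.29%. For BAK1 the NVP-2 shares were at most 0.775% in AsPC-1 and 0.956% in T3M-4, from means of 11.0% and 16.4% with DMSO. BCL2L11 kept the highest share with NVP-2 among the well-measured members, at 6.55 to 13.6% in AsPC-1 and 3.56 to 22.9% in T3M-4. Where no T>C read was seen the depth sets the limit: BCL2 had 0 T>C reads of 102 reads over the AsPC-1 NVP-2 libraries, which allows a share of up to 2.94%. BCL2A1 had 0 of 270 (up to 2.22%) and BBC3 0 of 176 in T3M-4 replicate 2.1 (up to 6.82%), counting error only. The last 2 limits allow for T>C counts that come in multiples of 2 (BCL2A1 in AsPC-1) and of 4 (BBC3).

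**Figure D3:**
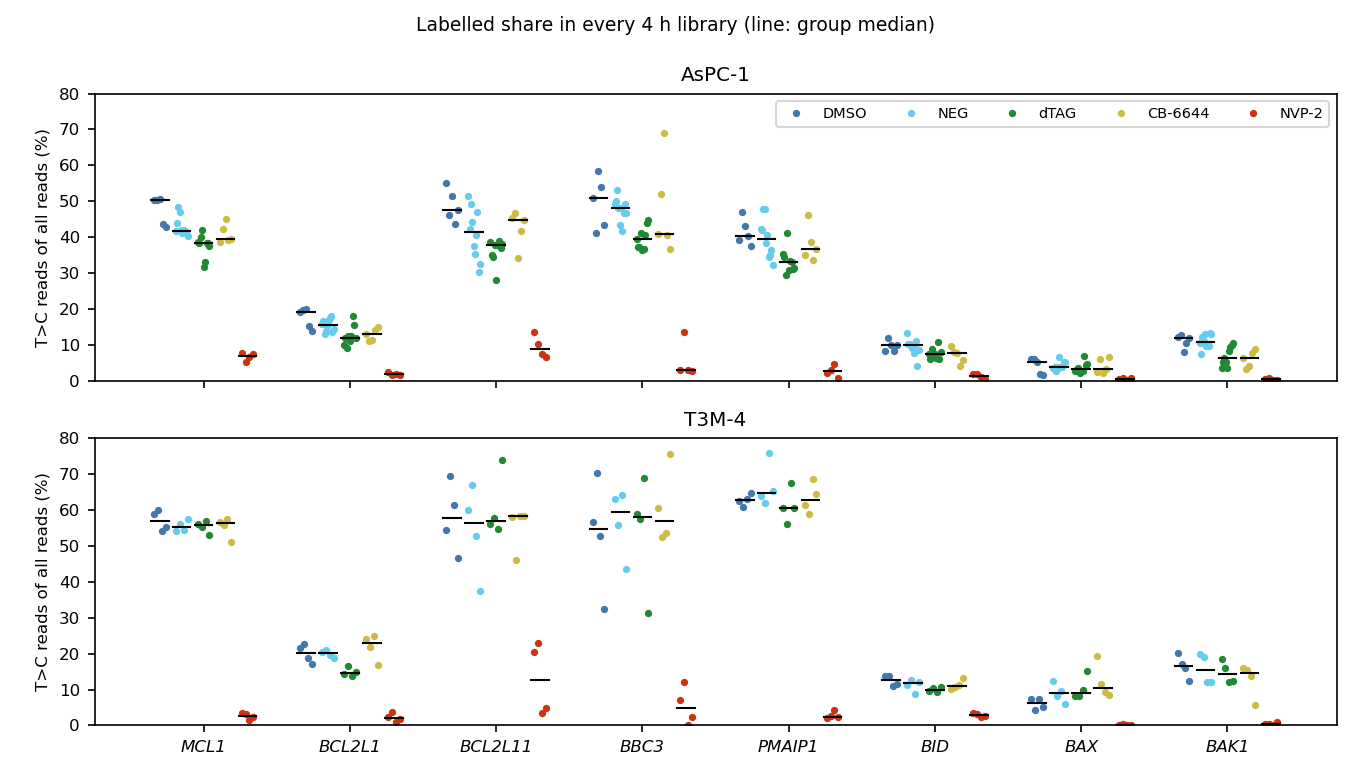
Percentage of a gene's reads with T>C conversions in every 4 h library for the 8 members with enough reads in both lines, by treatment (colour), with the group median as a line. NVP-2 libraries lie at the bottom for each gene, and MCL1, BCL2L11, BBC3 and PMAIP1 stand above the other 4 genes in all other treatments.

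Among the T>C reads that were left after NVP-2, MCL1 and PMAIP1 took a smaller part than with DMSO in both lines. T>C CPM are relative to the pool of T>C reads, which itself shrank, so a gene at 0 on this scale lost T>C reads like the typical gene. Reads with T>C from sequencing error were not measured, and their part in what was left after NVP-2 was not tested. Of the 8 members with enough T>C reads to be tested in AsPC-1 (BCL2 and BCL2A1 were filtered out), 4 were called lower, beside 17.6% of all genes lower and 30.5% in either direction. In T3M-4, 3 of 10 were called lower, beside 14.2% lower and 26.7% in either direction. MCL1 measured 314, 423, 660, 824 and 640 T>C CPM with DMSO and 93.3, 104, 186 and 216 with NVP-2 in AsPC-1. In T3M-4 the values were 550, 460, 744 and 746 with DMSO and 101, 91.1, 41.2 and 49.2 with NVP-2. Neither line had an overlap, as in 28.4% and 34.3% of all genes, and the log2 changes were -1.94 (SE 0.35, edgeR adjusted p = 0.00194) and -3.14 (SE 0.37, adjusted p = 0.000438).

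PMAIP1 changed by -2.13 (SE 0.45, edgeR adjusted p = 0.00467) in AsPC-1, from 27.7 to 54.8 T>C CPM with DMSO to 2.205 to 16.7 with NVP-2. In T3M-4 it changed by -2.94 (SE 0.39, adjusted p = 0.000749), from 47.0 to 90.05 to 4.16 to 11.4. BBC3 (-1.93, adjusted p = 0.0424) and BAK1 (-1.87, adjusted p = 0.0378) were called in AsPC-1, and BCL2L1 (-0.93, adjusted p = 0.0387) in T3M-4, all near the threshold. The AsPC-1 calls rest on few reads: with NVP-2 the libraries held T>C counts of 8 to 52 for BBC3 and 2 to 8 for BAK1. T>C counts of BAK1 were all multiples of 2 in both lines and its counts of all reads were not, so those 2 to 8 stand for fewer reads and the labelled share of BAK1 may be too high. BCL2L1 was called in only 2 of 8 fits that left out 1 library in T3M-4 (edgeR adjusted p up to 0.122). Leaving out any of 5 libraries (DMSO 2.1 or 2.2, NVP-2 1.1, 2.1 or 2.2) ended the calls of both BBC3 and BAK1 in AsPC-1, leaving 2 called members, MCL1 and PMAIP1. When T>C reads were scaled by all reads instead, 8 members were called lower in each line. The median gene changed by -3.05 and -2.97 on that scale, so this count does not set the members apart. The direction relative to DMSO therefore depends on the scale for the members above 0 in T>C CPM: BID and BAX in AsPC-1, and BID, BCL2L11, BCL2 and BCL2A1 in T3M-4.

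After degradation of KLF5, BCL2L1 was called lower in new RNA of T3M-4, near the threshold, and edgeR without a block called no other member in new or total RNA in either line. KLF5 is a transcription factor of epithelial cells, and dTAG was set against NEG to ask which genes it drives. In T3M-4, 1 of 10 members was called in T>C reads, beside 0.834% of all genes. BCL2L1 measured 554, 440, 457 and 437 T>C CPM with NEG and 286, 165, 211 and 216 with dTAG. The groups did not overlap, as in 5.74% of all genes, and the log2 change was -1.10 (SE 0.20, edgeR adjusted p = 0.0314). Its labelled share was 20.5, 20.9, 19.7 and 18.7% with NEG and 14.4, 16.4, 13.9 and 14.9% with dTAG, again without overlap, as in 4.99% of all genes with reads in every library (log2 odds -0.51, limma adjusted p = 0.121). Total BCL2L1 RNA measured 349, 273, 283 and 279 CPM with NEG and 263, 138, 201 and 178 with dTAG (log2 change -0.60, edgeR adjusted p = 1.00).

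The call for BCL2L1 was close to the threshold. It was past it with the replicate number as a block (-1.12, edgeR adjusted p = 0.00401), but in only 1 of 8 fits that left out 1 library (without dTAG 1.1), where the log2 change ran from -1.24 to -0.97 and the adjusted p up to 0.148. It was lost when T>C reads were scaled by all reads (-1.04, edgeR adjusted p = 0.0513) and in batch 1 alone (-1.13, 0.230), and kept in batch 2 alone (-1.05, 0.0322) and by DESeq2. In AsPC-1, 0 of 8 members tested in T>C reads were called, beside 2.4% of all genes, with 1 at an unadjusted p under 0.05. BCL2L1 ranged from 281 to 1148 T>C CPM (median 472) in 10 NEG libraries and from 187 to 747 (median 299) in 10 dTAG libraries, and the ranges overlapped. Its log2 change was -0.55 (adjusted p = 0.480). Deviations of same-numbered AsPC-1 libraries were correlated in T>C reads (0.264 to 0.544), though only 5 of 10 correlated best with their own number. With that block BCL2L1 was called (-0.56, edgeR adjusted p = 0.0162). With library set and experiment as blocks, 3 were called, BCL2L1 (-0.54) and BAK1 lower and BCL2L11 higher, and DESeq2 without a block called the thinly covered BCL2 instead. For these alternative fits the share of all genes called is not given here. In the test of the lines against each other, no member was called in T>C or all reads (0 of 10 by edgeR, beside 0.0426% and 0.0119% of all genes, and 0 at an unadjusted p under 0.05).

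In all reads, 0 of 10 members were called after dTAG in either line, beside 0.797% of genes in AsPC-1 and 0.0191% in T3M-4, with 1 member in each at an unadjusted p under 0.05, and DESeq2 called 0 as well. In AsPC-1, BCL2L1 changed by -0.49 with the replicate block (edgeR adjusted p = 0.0619) and was called with library set and experiment as blocks (-0.52, edgeR adjusted p = 0.0324). The labelled share of 6 of 10 members was called lower in AsPC-1, beside 32.3% of all genes (32.4% in either direction). The share of the whole library was 9.30% ± 0.688 (SD, n = 10) with NEG and 8.001% ± 0.337 (n = 9) with dTAG, and the median gene changed by -0.33 on the log2 odds scale. MCL1 (-0.33), BCL2L1 (-0.38), PMAIP1 (-0.39) and BBC3 (-0.47) were close to that median, and BAK1 (-0.81) and the thinly covered BCL2 (-2.35) were farther. BAK1 ranged from 7.55 to 13.2% (median 10.7) with NEG and from 3.61 to 10.6% (median 6.30) with dTAG. Within batch 2 alone no member was called. In T3M-4, 0 of 10 were called, beside 0.216% of genes.

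CB-6644 called no member in any measure. It was given to ask what loss of RUVBL1/2 ATPase activity does to transcription. In T>C reads 0 members were called at 4 h in AsPC-1 (of 8 tested), at 4 h in T3M-4 (of 10) and at 12 h in AsPC-1 (of 8), beside 0% of all genes in each, with 1, 1 and 2 at an unadjusted p under 0.05. In all reads the counts were 0 of 9, 0 of 10 and 0 of 10, beside 0%, 0.0127% and 0% of genes, with 1, 0 and 1 at an unadjusted p under 0.05. For the labelled share 0 were called beside 1.56%, 0% and 0.00695%, with 4, 1 and 1 at an unadjusted p under 0.05. DESeq2 on T>C and all reads called 1 member, BBC3 in T>C reads at 12 h.

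At 12 h, BBC3 measured 37.7, 41.4, 39.1 and 35.9 T>C CPM with DMSO and 22.0, 20.2, 18.6 and 17.7 with CB-6644. The groups did not overlap, as in 3.24% of all genes, and the log2 change was -0.97 (SE 0.17), with an edgeR adjusted p of 0.526 and a DESeq2 adjusted p of 0.000223. Its total RNA measured 7.63, 7.60, 7.87 and 6.52 CPM with DMSO and 5.24, 5.42, 4.65 and 4.41 with CB-6644, and its labelled share 45.6, 52.2, 42.0 and 49.5% and 39.3, 36.2, 33.7 and 33.7%. In each of the 3 measures all 4 treated libraries were lower (groups did not overlap in 2.28% of genes for total RNA and in 3.07% for the share), and the differences in total RNA and share passed no threshold (edgeR adjusted p = 1.00, limma adjusted p = 0.921). The share is the ratio of the other measures, so it is no separate evidence. BBC3 counts come in multiples of 4, so the DESeq2 result may rest on fewer reads than its counts imply. At 4 h the BBC3 change in T>C reads was near 0 in AsPC-1. BCL2L11 had the smallest unadjusted p at 4 h in AsPC-1, with a log2 change of 0.48 (SE 0.16, edgeR adjusted p = 0.979) in T>C reads.

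**Figure D4:**
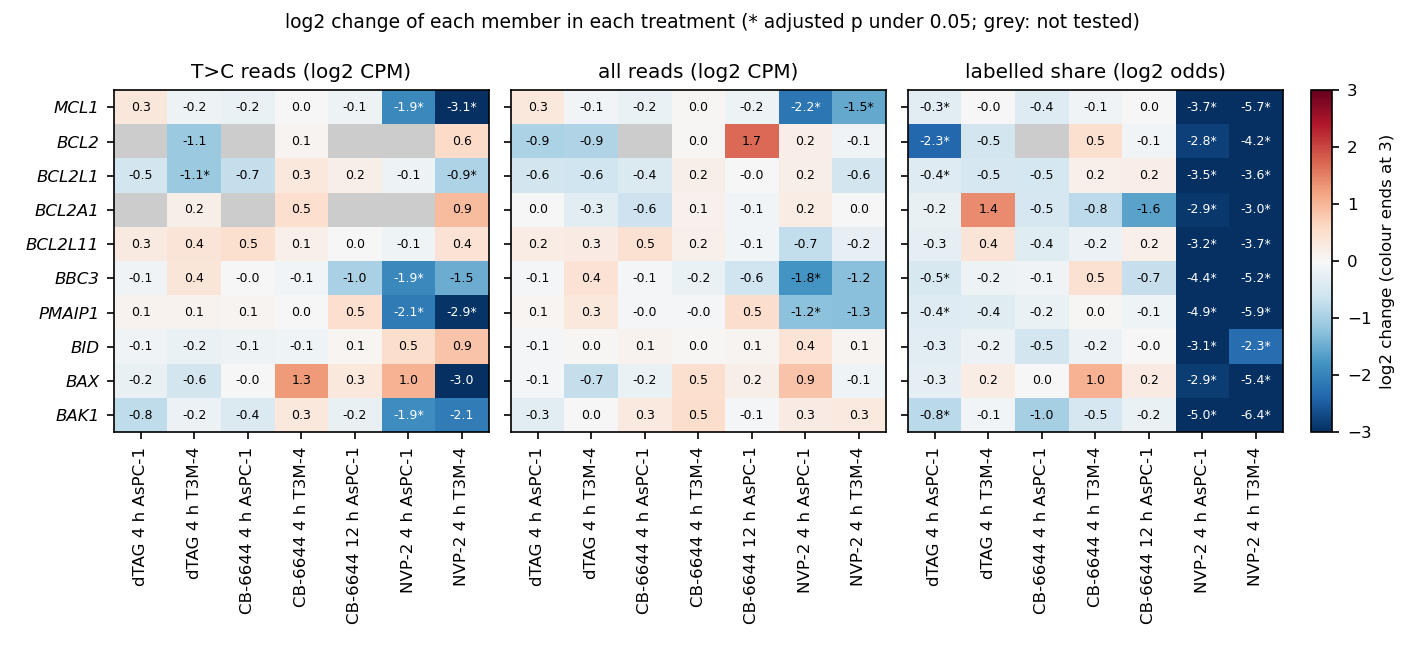
log2 change of each member (rows) in the 7 comparisons (columns) for T>C reads, all reads and the log2 odds of the labelled share; blue is lower and red higher in the treated group, an asterisk marks an adjusted p under 0.05, grey was not tested, and the colour scale ends at 3. The asterisks are in the NVP-2 columns, except BCL2L1 in T>C reads of T3M-4 with dTAG and 6 members in the labelled share of AsPC-1 with dTAG.

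The effect of CB-6644 or of NVP-2 was not shown to differ between the lines for any member. By edgeR, 0 of 10 members were called in T>C and 0 in all reads for CB-6644 (0% of all genes in both, 0 members at an unadjusted p under 0.05), and 0 and 0 for NVP-2 (0.851% and 0.00599% of genes, with 2 and 0 members at an unadjusted p under 0.05). The interaction for BAX in T>C reads after NVP-2 had the smallest p, with a log2 difference of -4.10 (T3M-4 minus AsPC-1, SE 1.28, edgeR adjusted p = 0.141). It rests on 2 to 16 T>C reads of BAX per NVP-2 library in AsPC-1 and 0 to 2 in T3M-4.

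BCL2 was higher and BCL2L11 lower in untreated T3M-4 than in AsPC-1. With DMSO at 4 h, 4 of 10 members were called higher in T3M-4 and 1 lower in all reads, close to the 30.5% and 25.2% of all genes (55.7% in either direction), so the count says nothing about the members as a group. BCL2 measured 1.14, 0.820, 2.32 and 0.855 CPM in T3M-4 and 0.0996, 0.435, 0.0892, 0 and 0.0649 CPM in AsPC-1. The lines did not overlap, as in 48.1% of all genes, and the log2 difference was 3.19 (SE 0.88, edgeR adjusted p = 0.0102), but the level in AsPC-1 is close to nothing. BCL2L11 went the other way, with 3.47, 2.197, 3.34 and 3.66 CPM in T3M-4 and 4.64, 6.77, 7.70, 6.82 and 4.87 CPM in AsPC-1 (-0.96, SE 0.23, edgeR adjusted p = 0.00489). Those 2 were called in all 9 fits that left out 1 library.

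BCL2A1 (1.66), BAK1 (0.75) and BID (0.57) were called higher in T3M-4 with edgeR adjusted p of 0.0303, 0.0328 and 0.0374. They depended on single libraries: without AsPC-1 DMSO 1.2 only BCL2 and BCL2L11 were called, and without AsPC-1 2.2, T3M-4 1.1 or T3M-4 1.2 only those and BAK1. BCL2A1 measured 2.28 and 1.56 CPM in T3M-4 replicates 1.1 and 1.2 and 0.395 and 0.472 in replicates 2.1 and 2.2, against 0.204 to 0.624 in AsPC-1. Within batch 1 alone, BCL2 was not called, and BCL2A1, BCL2L11, BID, PMAIP1 and BAX were. For MCL1 the difference between the lines did not pass the threshold (0.09, SE 0.26, edgeR adjusted p = 0.784), with 126 to 172 CPM in T3M-4 and 77.7 to 207 in AsPC-1.

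No other gene of the pathway was called in total RNA after NVP-2. Of 13 further BCL2 family genes, 10 were tested in AsPC-1 and 12 in T3M-4, with 0 called in either direction and median log2 changes of 0.20 and 0.31. Of a list of 18 genes termed downstream here (caspases, APAF1, CYCS, IAPs, CFLAR, AIFM1, ENDOG, VDAC1, VDAC2 and others), 0 were called in either line, with medians of 0.04 and 0.11. In T>C reads, BCL2L2, a pro-survival member, was called lower in both lines (-1.35 and -2.99), BCL2L13 in AsPC-1 (-1.06) and the BH3-only gene BIK in T3M-4 (-1.89). BCL2L12 was called higher in both lines (0.78 and 2.36), BNIP3 in T3M-4 (2.11), AIFM1 in both (1.2 and 2.49) and APAF1, the apoptosome scaffold, in AsPC-1 (1.61). That makes 1 higher and 2 lower of 8 further family genes in AsPC-1, 2 higher and 2 lower of 9 in T3M-4, and 2 and 1 higher of the 18 downstream genes, with 0 lower, beside 30.5% and 26.7% of all genes called in either direction. These rises are relative to the pool of T>C reads, which itself shrank. The labelled share was called lower in 10 of 10 and 10 of 12 further family genes and in 17 of 18 downstream genes in each line. On that measure 0 listed genes were called higher, and 86.3% and 81.8% of all genes were called lower. After dTAG, 0 of either list were called in T>C or all reads in either line.

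Between the untreated lines, 4 further family genes were called higher in T3M-4 and 1 lower of 12, and 6 of the 18 downstream genes higher and 6 lower, beside 30.5% of all genes higher and 25.2% lower. The BH3-only gene HRK ranged from 5.57 to 7.70 CPM in T3M-4 and from 0 to 0.0395 in AsPC-1, BNIP3 from 2.71 to 4.52 CPM against 0 in all 5 AsPC-1 libraries, and BIK from 17.1 to 49.4 against 0.738 to 2.53. BCL2L15 was lower in T3M-4 (0.0608 to 0.346 against 2.38 to 4.69). Of the downstream genes, CFLAR, an inhibitor of caspase-8 activation (log2 difference -2.50), APAF1 (-1.60) and XIAP, an inhibitor of caspases (-1.39), were lower in T3M-4, and BIRC5 (1.03), CYCS, cytochrome c (0.80), and CASP9, the apoptosome's caspase (1.01), were higher.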

How the data were processed

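The authors made 3′ end SLAM-seq libraries with 4sU, aligned the reads to hg38 and ran slamdunk with default settings, counting over the 3′UTR exons of GENCODE v44 and adding these up for each gene. The deposited tables hold raw counts of T>C reads and of all reads, not normalized. A read that falls on several annotated exons can be counted more than once. The all-reads column of AsPC-1 dTAG 3.1 was identical over 29794 genes to 1 T>C column and was left out, so dTAG has 9 libraries there. No column with values was unmapped (0).

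Groups came from the sample labels. The study describes its SLAM-seq replicates as biological and from repeated experiments, and the labels do not say which libraries shared a culture, so each library was treated as independent. Libraries of the same experiment number were thus counted separately in the main fits, and their SE and p do not measure the spread between experiments. The members and gene lists were chosen with earlier results of these data known. T>C and all-read counts were tested with edgeR 4.0.16 (filterByExpr, TMM, glmQLFTest, R 4.3.3) on the libraries of each comparison, and DMSO 4 h between lines in all reads. The labelled share was tested with limma 3.58.1 on log2 odds with 0.5 reads added to each count and a prior variance trended on mean depth, a trend chosen after a test on simulated data. SE is the change divided by the square root of F. CPM are TMM-scaled within a comparison, so a control library differs slightly between comparisons. Values were called at an adjusted p under 0.05. Named genes outside the 10 members were the 3 with the smallest p per direction in each list among those called, and the 3 genes with the highest Pearson r over group means. Those means were of log2(CPM + 1) of all reads, centred within each line. Alternatives were DESeq2 1.42.0, no filter on low counts, T>C reads scaled by all reads, blocks, single batches, other controls and each replicate left out. Motifs were sought on the gene's strand in its merged annotated 3′UTR. Pairs of same-numbered libraries were checked by the correlation of their deviations over genes: those of dTAG in both lines, CB-6644 in T3M-4 and at 12 h, and NVP-2 in T3M-4 in all reads (lowest 0.189) deviated together, and those of CB-6644 at 4 h and NVP-2 in AsPC-1 did not. No library repeated another within counting noise. Intervals and limits cover counting error only.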

Additional observations from a re-analysis of the deposited data

Results flagged for a closer look

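Of 356 groups of 4 to 10 libraries tested, 25 held a library whose distance from its nearest neighbour was beyond Dixon's limit, and chance alone gives about 1 in 20. The first number is that library's value, and values are T>C CPM, CPM of all reads or labelled share in %.

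Among pro-survival members, the thinly covered BCL2 in AsPC-1 had a high library in T>C CPM for CB-6644 12 h (replicate 1, 1.327), DMSO 12 h (2, 1.231) and DMSO 4 h (1.2, 1.271), in all reads for CB-6644 4 h (1.1, 0.6899 CPM) and DMSO 4 h (1.2, 0.4277 CPM), and in share for CB-6644 4 h (2.2, 100%). BCL2A1 had a high library in AsPC-1 CB-6644 4 h (2.1, 1.258 T>C CPM and 58.33% labelled). BCL2L1 had a high library in T>C CPM in AsPC-1 NEG (3.3, 1148), T3M-4 DMSO (1.2, 711.8) and T3M-4 NEG (1.1, 554.1), the last also in all reads (348.9 CPM). T3M-4 NEG 1.1 is a control of the comparison that called BCL2L1 lower with dTAG, which without that library gave a log2 change of -1.02 (edgeR adjusted p = 0.0914).

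Among BH3-only members, BCL2L11 stood apart in all reads in AsPC-1 CB-6644 4 h (1.3, 10.32 CPM) and in share in AsPC-1 dTAG (2.1, 27.97%, low), T3M-4 CB-6644 (1.2, 46.11%, low) and T3M-4 dTAG (2.2, 73.81%, high). BBC3 had 1 high library in AsPC-1 NVP-2 (1.2, 21.44 T>C CPM and 13.54% labelled), without which the T>C change was -2.999 (edgeR adjusted p = 0.00618). PMAIP1 had a high share in AsPC-1 dTAG (1.4, 41.25%). BID was apart in T>C CPM in AsPC-1 DMSO 4 h (1.1, 16.94) and dTAG (3.2, 45.97). Among effectors, BAX was high in all reads in AsPC-1 DMSO 12 h (1, 11.59 CPM), NEG (3.4, 11.8 CPM) and dTAG (3.3, 10.49 CPM), and BAK1 in share in AsPC-1 DMSO 12 h (4, 18.16%).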

How the results depend on the processing

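Values are numbers of members called, of the 10, unless said otherwise, and the cause of a change was not tested. The shares of all genes called under these alternatives are not given here, so a count that moved is no result about the members as a group. With the replicate number as a block, T>C reads gave 1 for dTAG in AsPC-1 (BCL2L1, 0 without the block) and 2 for NVP-2 in AsPC-1, and all reads gave 1 for NVP-2 in AsPC-1 and 4 in T3M-4. The AsPC-1 DMSO 4 h and NVP-2 libraries share only a number. The block moved no other count of calls by over 1.5 times. DESeq2 on T>C reads gave 1 for dTAG in AsPC-1 (BCL2), 1 for CB-6644 at 12 h (BBC3) and 6 for NVP-2 in T3M-4, and on all reads 2 for NVP-2 in T3M-4. With library set and experiment as blocks, dTAG in AsPC-1 gave 3 in T>C reads (BCL2L1 and BAK1 lower, BCL2L11 higher) and 1 in all reads (BCL2L1). T>C reads scaled by all reads gave 0 for dTAG in T3M-4 and 8 for NVP-2 in each line. On that scale, where the median gene fell by about 3, every member above 0 after NVP-2 turned below it: BID -2.41 and BAX -2.08 in AsPC-1, and BCL2L11 -2.21, BID -2.04 and, past no threshold, BCL2 -2.52 and BCL2A1 -1.84 in T3M-4. Batch 1 alone gave 0 for dTAG in T3M-4 and 5 for NVP-2 in T3M-4 in T>C reads, and 0 for NVP-2 in T3M-4 in all reads, where batch 2 alone gave 5. Batch 2 alone gave 0 in the labelled share for dTAG in AsPC-1. A library set term, added after the data were seen, gave 2 for NVP-2 in T>C reads of AsPC-1.

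Leaving out 1 library at a time gave, from lowest to highest, 0 to 1 for dTAG in T>C reads of T3M-4, 2 to 4 for NVP-2 in T>C reads of AsPC-1 and of T3M-4, 2 to 4 for NVP-2 in all reads of AsPC-1 and 1 to 1 in T3M-4, 2 to 4 for DMSO between the lines, 8 to 10 for NVP-2 in the labelled share of each line and 4 to 7 for dTAG in that of AsPC-1. Over single members and all alternatives, 2971 values kept their direction and side of the threshold, 270 that were called in neither fit changed sign, 95 lost the call, 37 gained one and 4 reversed with a call. Prior variance by mean log odds, also added after the data were seen, moved no count of calls by over 1.5 times. Depth limits BCL2 and BCL2A1 in AsPC-1 and, after NVP-2, the T>C reads of BBC3, BAX and BAK1.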
